A study of Saccharomyces cerevisiae with 72 samples.

Results

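The comparison described here is between a *UME6* T99N strain and a strain with wild-type *UME6* at 0 h, the moment of entry into sporulation medium. Its members are the 6 RNA-seq libraries of that time point among the 72 samples of the series, with 3 libraries of UB22629 and 3 of UB20649, and they were chosen by strain and time alone. The values cover 5424 coding sequences (CDSs) of the SK1 annotation out of 5498 features, the others being regions that span 5′ extensions. Both strains are diploids of the SK1 background, a yeast that sporulates efficiently, and the strains' genotypes are taken from the study's strain list. UB22629 carries *ume6::UME6(T99N)-3V5::KanMX*, *irt1::pCUP1-3HA-IME1::KANMX* and *pCUP-IME4::NAT*, all homozygous. UB20649 carries *Ume6-3v5::His3MX*, *irt1::pCUP1-3HA-IME1::KANMX* and *ime4::pCUP1-3HA-IME4::KANMX*, all homozygous. The strains therefore differ in the selectable marker at *UME6* and in the construct at *IME4* as well as in the allele, and these differences cannot be told apart from that of the allele in this comparison. Each genotype is 1 strain. In both, the copper-inducible *CUP1* promoter drives *IME1* and *IME4*, and no copper had been added at 0 h. Nothing in the labels says whether the replicates came from separate cultures, so the p-values measure only the spread between these libraries.

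Ume6 is a DNA-binding protein that recognizes the upstream repression sequence URS1. In cells that are not in meiosis it recruits the Sin3-Rpd3 histone deacetylase and the Isw2 chromatin remodeler and represses early meiotic genes together with some metabolic genes. When Ime1 accumulates in starved diploids, Ime1 binds Ume6 and the same promoters are activated. The T99N substitution is known to block the interaction with Ime1. At 0 h the cells had been pre-grown in reduced YPD and just transferred to sporulation medium, with *IME1* not yet induced by copper, and the comparison asks how the transcriptomes of the strains differed before induction.

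The core letters of URS1, GGCGGC or its reverse complement GCCGCC, were looked for in the promoters of the S288C reference genome (RefSeq, R64), from 250 bp before to 50 bp after the start of each gene. An SK1 genome sequence was not used here, so these are S288C letters and may differ in SK1. The 6 promoters below are shown because their genes stand among the largest rises in T99N or among the early meiotic genes. Each window is 26 bases long, runs 5′ to 3′ on the strand of the gene, and has the core in capitals.
SPO13: ttgagaaataGCCGCCgacaaaaagg
SPO16: gtgaaaagtgGGCGGCtaaaaccgag
PCH2: caataaggtgGGCGGCaaatctacga
RNP1: acaacaaataGCCGCCgaagttcctg
MEI5: aaaagtattaGCCGCCcaaacttcta
SAE3: tctgcctaatGGCGGCtattctattt
These windows lie at chrVIII:131942-131967 for *SPO13*, chrVIII:402755-402780 for *SPO16*, chrII:600448-600473 for *PCH2*, chrXII:47624-47649 for *RNP1*, chrXVI:321741-321766 for *MEI5* and chrVIII:262647-262672 for *SAE3*. *SPO13* and *PCH2* are on the plus strand and the others on the minus strand. The core starts between 176 and 88 bp before the gene in these 6 promoters. Of all 5369 promoters matched to a tested gene, 254 (4.73%) held the core.

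The T99N libraries held between 5646006 and 8849741 reads (median 7008581) and the wild-type libraries between 9087102 and 15291175 (median 13358009), so that depth did not overlap between the strains. Thinning all libraries to the smallest kept every count of calls within 1.5 times. A CDS was called at a Benjamini-Hochberg adjusted p under 0.05 in edgeR's quasi-likelihood test, with T99N over wild type. Of 5395 CDSs tested, 1380 (25.6%) were called higher and 1461 (27.1%) lower in T99N, around a median log2 fold change of −0.0083. Called and over 2-fold were 173 higher (3.21%) and 163 lower (3.02%). Since 2841 CDSs (52.7%) passed the test, the counts of any gene group below are read against these background shares. Expression is given in CPM, reads of a CDS scaled to a fixed library total by TMM.

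The difference also moved with CDS length. Length here is the span from start to end of the feature, so any intron is counted in it. Short CDSs were lower in T99N, at a median log2 fold change of −0.85 for 147 CDSs up to 300 bp and −0.29 for the 632 next in length, up to 600 bp. The median was −0.022 over 1274 CDSs longer than 1000 and up to 1500 bp, and 0.17 over 760 CDSs longer than 2500 bp. Called lower were 70.7% of CDSs up to 300 bp and 11.3% of those over 2500 bp. CDSs up to 600 bp took between 5.69% and 5.96% of the CPM in T99N libraries, against 7.03% to 7.62% in wild-type libraries, without overlap. The cause of this trend was not tested. When each library was scaled by its own trend on length, which was decided on with the values in view, 25.3% of CDSs were called higher and 25.1% lower, with 197 (3.65%) over 2-fold higher and 64 (1.19%) over 2-fold lower. All 173 CDSs over 2-fold higher were still called higher with this scaling, and 145 of the 163 over 2-fold lower were still called lower. Below, a log2 fold change "with the length scaling" comes from that setting.

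**Figure D1:**
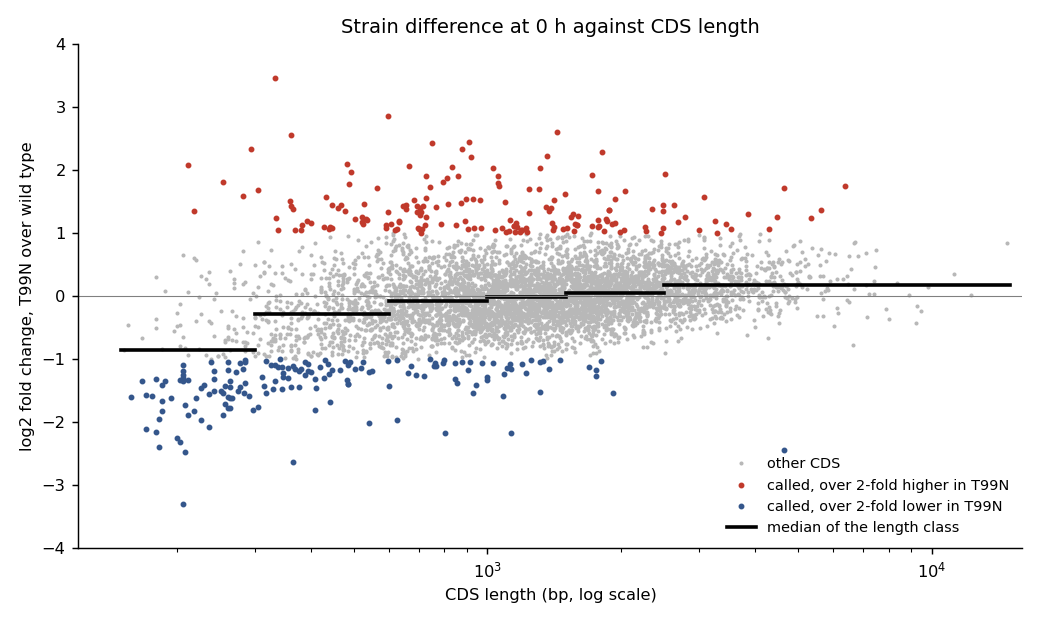
Each point is 1 CDS tested at 0 h, with its length in bp on a log axis and its log2 fold change (T99N over wild type) on the other axis. Red and blue mark CDSs called and over 2-fold higher or lower, black lines give the median of each length class, and the blue points gather below 600 bp, where 118 of the 163 CDSs over 2-fold lower lie. *PAU22* copy 2, with 0 reads in T99N and 86 in wild type, is not drawn.

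*UME6* itself (YDR207C, chromosome IV of the SK1 assembly, 853208 to 855718, minus strand) was higher in T99N. It had 480, 551 and 485 CPM in the T99N libraries, against 116, 140 and 142 CPM in the wild-type libraries. The groups did not overlap, and the log2 fold change was 1.93 (standard error 0.10, adjusted p = 8.2e-10, edgeR). The reads do not tell the alleles apart, so they do not check the mutation. *IME1* (YJR094C), the inducer of meiosis, had 84.3, 68.7 and 64.3 CPM in T99N, against 63.8, 56.0 and 49 CPM in wild type. Here the difference was small, with a log2 fold change of 0.37 (± 0.12 SE, adjusted p = 0.016, edgeR), and it was not called without T99N replicate 1 (adjusted p = 0.14), wild-type replicate 2 (0.052) or wild-type replicate 3 (0.077). *IME4* (YGL192W), the mRNA methyltransferase subunit, had 37.7, 36.7 and 42.5 CPM in T99N, against 29.0, 24.4 and 19.9 CPM in wild type (log2 fold change 0.68, standard error 0.14, adjusted p = 0.00071, edgeR). In a fit of all 24 libraries of both strains, neither *IME1* (adjusted p = 0.71) nor *IME4* (0.44) was called at 0 h.

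The genes next to the edited loci were read as well. The construct listed at *IME1* is the same in both strains, so a difference beside it does not compare constructs. The cause of a difference beside any of these loci was not tested. Beside *UME6*, 1 of 6 neighbours was called, *TCP1*, a chaperonin subunit, at a log2 fold change of −0.50. Beside *IME1*, the succinate-fumarate transporter gene *SFC1* had 765, 822 and 687 CPM in T99N, against 305, 379 and 397 CPM in wild type (log2 fold change 1.07, standard error 0.11, adjusted p = 1.3e-06, edgeR). *YJR096W* was called lower at −0.34, and the other 4 neighbours were not called. Beside *IME4*, where the constructs differ, the histone deacetylase gene *HOS2* (YGL194C) had 110, 97.6 and 117 CPM in T99N, against 25.1, 23.3 and 21.4 CPM in wild type. Its log2 fold change of 2.22 (± 0.11 SE, adjusted p = 8.2e-10, edgeR) was among the 15 largest rises, and the groups were far apart. All 6 neighbours of *IME4* were called, 2 higher and 4 lower (25.6% and 27.1% of all CDSs). Those other than *HOS2* had log2 fold changes between −0.64 and 0.26. With the length scaling 2 were called higher and 2 lower, and the fit of 24 libraries called 1 higher and 3 lower.

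Marker genes differed as well. *URA3*, of pyrimidine synthesis, had 8.09, 9.13 and 9.32 CPM in T99N, against 55.0, 35.0 and 29.8 CPM in wild type (log2 fold change −2.17, standard error 0.21, adjusted p = 4.4e-07, edgeR). *LEU2* was lower at −0.58 and *LYS2* at −0.32, *TRP1* was higher at 0.34 (adjusted p = 0.02, edgeR), and *HIS3* was not called (−0.18, adjusted p = 0.26, edgeR). *LYS2* reached an adjusted p of 0.05 without T99N replicate 2, and *TRP1* was not called without T99N replicate 2 (0.16) or wild-type replicate 2 (0.093). *CUP1-2*, the copper metallothionein, had 12.1, 11.9 and 16.1 CPM in T99N, against 57.5, 39.5 and 44.8 CPM in wild type. Its CDS is 185 bp long, and the log2 fold change of −1.83 became −0.68 with the length scaling.

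Early meiotic genes were higher in T99N at 0 h. Of 32 genes of meiotic recombination and synapsis, 26 were called higher (81.2%, against 25.6% of all CDSs) and 0 lower, with a median log2 fold change of 1.34, against −0.0083 over all CDSs tested. In 25 of them every T99N library lay above every wild-type library, which held for 29.3% of all CDSs. With the length scaling, 26 were called higher and 1 lower, and the median was 1.26. A fit of all 24 libraries of both strains also called 26 higher and 0 lower, against 17.9% and 18.9% of all CDSs. *SPO16*, of the synapsis initiation complex, had 24.3, 42.7 and 31.0 CPM in T99N, against 6.26, 2.87 and 4.59 CPM in wild type. It had the largest fold change of the list (log2 2.86, standard error 0.25, adjusted p = 1.2e-07, edgeR). *SPO13*, which keeps sister kinetochores together in meiosis I, had 35.3, 37.4 and 35.3 CPM in T99N, against 7.82, 5.97 and 7.62 CPM in wild type (log2 fold change 2.33, standard error 0.15, adjusted p = 5.8e-09, edgeR). *PCH2*, an AAA+ ATPase of the meiotic checkpoint, had 88.7, 72.5 and 92.7 CPM in T99N, against 19.9, 15.0 and 17.1 CPM in wild type (log2 fold change 2.29, standard error 0.13, adjusted p = 1.5e-09, edgeR). In none of these did the strains overlap, which was a condition for standing among the 15 largest rises, and each wild-type library held reads.

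The higher genes covered the stages of early prophase. *SPO11*, the catalytic subunit that makes meiotic double-strand breaks, was called at a log2 fold change of 0.68, and its partners *REC102*, *REC104*, *REC107*, *REC114* and *MEI4* at 0.39 to 1.38. The meiotic recombinase *DMC1* was higher by 1.49 and its loading factors *MEI5* and *SAE3* by 2.07 and 2.56, and *HOP2* and *MND1*, which act together with Dmc1, by 1.91 and 1.73. Of the axis and synaptonemal complex genes, the meiotic cohesin *REC8* was higher by 1.67, *RED1* by 1.45, *ZIP1* by 1.44 and *ECM11* by 2.44. *HOP1*, another axis gene, had 25 ± 1.94 CPM in T99N and 22.7 ± 6.23 CPM in wild type (SD, n = 3 each) and was not called (log2 fold change 0.15, adjusted p = 0.49, edgeR). *ZIP2*, *MSH4*, *MSH5*, *CST9* and *SPO1* were not called either, with values from −0.29 to 0.24. *MEI5* had 11.2, 11.0 and 10.8 CPM in T99N, against 3.55, 1.91 and 2.52 CPM in wild type. *SAE3* was low in both strains, at 3.48 ± 0.438 CPM in T99N and 0.613 ± 0.311 CPM in wild type (SD, n = 3 each).

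**Figure D2:**
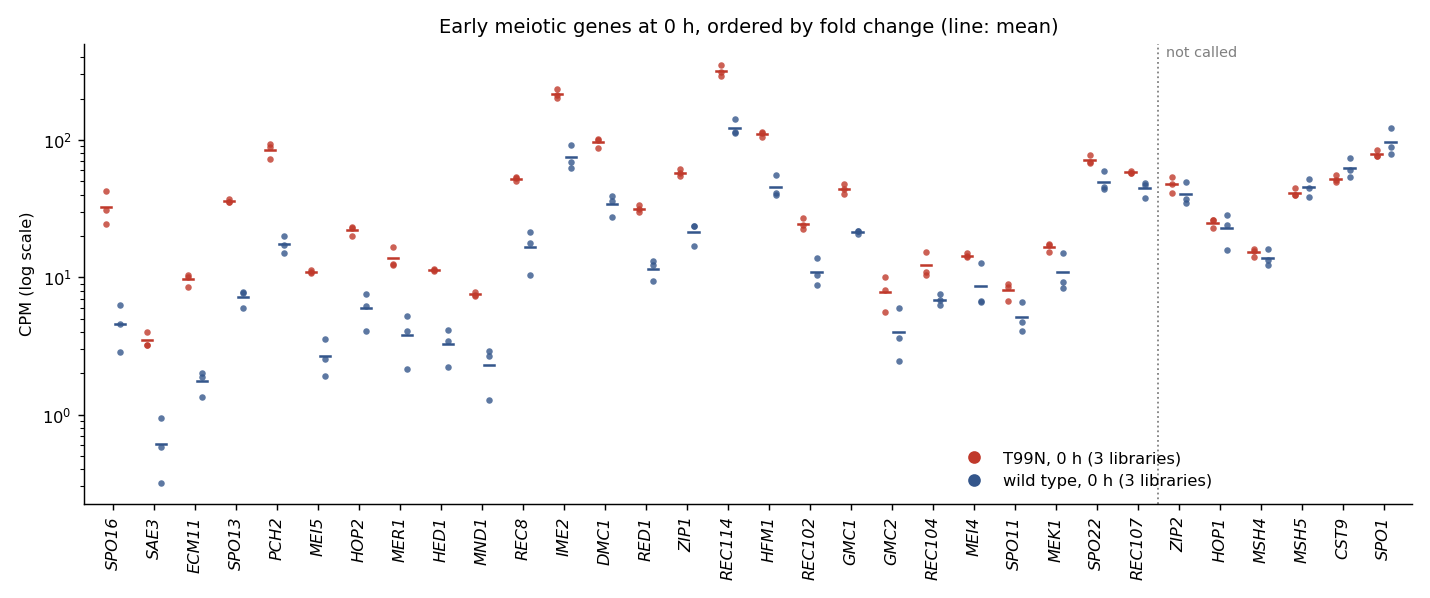
CPM on a log axis of the 32 early meiotic genes in the 3 T99N libraries (red, left of each pair) and the 3 wild-type libraries (blue, right), with a line at each mean. The genes run by falling fold change, and left of the dotted line stand the 26 called higher, of which *GMC2* is the 1 with overlapping libraries.

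Regulators that act at meiotic entry moved less evenly. *IME2*, the kinase that drives entry into meiosis, had 235, 212 and 201 CPM in T99N, against 92.6, 62.2 and 69.3 CPM in wild type (log2 fold change 1.54, standard error 0.12, adjusted p = 6.3e-08, edgeR). *SLZ1*, which like *IME4* belongs to the mRNA methylation complex, averaged 129 ± 20.2 CPM in T99N and 44.5 ± 7.63 CPM in wild type (SD, n = 3 each), a log2 fold change of 1.53. *RIM4*, an RNA-binding protein of meiosis, was higher by 0.82. Of the 24 regulators, 10 were called higher (41.7%) and 5 lower (20.8%), against 25.6% and 27.1% of all CDSs. Their median was 0.23, and in the fit of 24 libraries 6 were called higher and 4 lower. The 10 called higher include *IME1* and *IME4*, which the *CUP1* promoter drives in both strains, with different constructs at *IME4*. Among the lower were the kinase genes *RIM11* and *MCK1*, at −0.35 and −0.43. Of 36 middle sporulation and spore wall genes, which follow later under Ndt80, 8 were called higher (22.2%) and 6 lower (16.7%), shares no higher than over all CDSs, and the fit of 24 libraries called 5 higher and 2 lower. *NDT80* was not called (log2 fold change 0.33, adjusted p = 0.093, edgeR). *AMA1*, an activator of the anaphase-promoting complex, was higher by 1.36, *DON1* by 1.20 and *SPO74* by 1.71, and *SPS22* was lower by 0.81 on the log2 scale.

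Canonical Ume6 targets, a list drawn from earlier work, were read next. All 73 were tested, and 44 of them are annotated with both a URS1 motif and Ume6 binding. *IME4*, which the *CUP1* promoter drives in both strains, is among the 73 and was called higher. Of the 44, 32 were called higher (72.7%) and 3 lower (6.82%) in T99N, with a median log2 fold change of 0.80. Of the other 29 targets, 6 were called higher and 6 lower (20.7% each), with a median of 0.035. The list overlaps the early meiotic genes in 20 members. Among the 53 targets outside that list 22 were called higher (41.5%) and 9 lower (17.0%), with a median of 0.15. Outside meiosis, *INO1*, which makes inositol phosphate for phospholipid synthesis, had 848, 920 and 842 CPM in T99N, against 272, 353 and 453 CPM in wild type. Its log2 fold change was 1.27 (standard error 0.14, adjusted p = 2e-06, edgeR). *SIP4*, a transcription factor of gluconeogenesis, had 1460, 1510 and 1470 CPM in T99N, against 691, 554 and 503 CPM in wild type (log2 fold change 1.35, standard error 0.12, adjusted p = 2.2e-07, edgeR). In both genes the strains were apart by more than the spread of either. The arginase gene *CAR1* had 152, 133 and 160 CPM in T99N, against 72.2, 91.8 and 95.6 CPM in wild type, a log2 fold change of 0.77 (adjusted p = 2.7e-05, edgeR). *RNP1*, which encodes an RNA-binding protein, had 35.1, 51.3 and 37.3 CPM in T99N, against 10.1, 6.77 and 6.46 CPM in wild type (log2 fold change 2.43). *PHO92*, a reader of methylated mRNA, was higher by 2.21, and *SRT1*, a prenyltransferase, by 2.03. The lowest values among the 73 were those of *ATG8* at −0.61, a gene of autophagy, and *GPH1* at −0.53, glycogen phosphorylase. *ATG8*, with a CDS of 353 bp, had −0.16 with the length scaling and was not called there, whereas *GPH1* had −0.68.

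Ume6 is known to work with corepressors, and their genes were read beside it. Of 18 genes for Ume6 and its corepressors, *UME6* among them, 11 were called higher (61.1%) and 1 lower (5.56%), against 25.6% and 27.1% of all CDSs. Their median log2 fold change was 0.29. With the length scaling 9 were called higher and 1 lower, and the fit of 24 libraries called 8 higher and 1 lower. *UME6* had the largest value. *SAP30*, of the Rpd3 complex, was higher by 0.83 and *ITC1*, the partner of Isw2, by 0.79. *RPD3* was not called (−0.042, adjusted p = 0.74, edgeR), and *SIN3* was called at 0.25, or 0.028 with the length scaling, where it was not called. *DLS1*, a small subunit of the Isw2 complex, was the 1 gene called lower (−0.69).

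Not all of the largest rises were meiotic genes. The 15 largest rises were taken among CDSs with separate libraries and at least 10 CPM in T99N. *SAE3* (2.56) and *ECM11* (2.44) averaged less than that CPM and are not among them. Of these 15 CDSs, 9 had a Ume6 peak upstream and 8 had both a peak and the GGCGGC core. The largest was *STE18* (YJR086W, chromosome X, 585664 to 585996, plus strand), the gamma subunit of the pheromone-response G protein. It had 20.8, 19.7 and 21.2 CPM in T99N, against 1.88, 1.83 and 1.87 CPM in wild type. The log2 fold change was 3.46 (standard error 0.20, adjusted p = 2e-09, edgeR), with next to no spread within either strain. Its partner genes *STE4* (0.10) and *GPA1* (0.28) were not called. *CTF13* (YMR094W), of the inner kinetochore, had 161, 195 and 168 CPM in T99N, against 36.2, 24 and 26.4 CPM in wild type (log2 fold change 2.61, standard error 0.14, adjusted p = 8.2e-10, edgeR). *MIC10*, of the mitochondrial cristae junction, had 213, 267 and 231 CPM in T99N, against 42.3, 47.6 and 50.6 CPM in wild type. It rose (log2 fold change 2.34) although its CDS spans only 293 bp, and with the length scaling the value was 2.94. The study lists this gene (YCL057C-A) among its candidate loci with a 5′-extended transcript. Its CDS reads can therefore come from the extended or the shorter transcript. *RPC10*, a subunit shared by the RNA polymerases, was higher by 2.08 and *VMA11*, of the vacuolar ATPase, by 1.97, also from CDSs under 600 bp. Neither had a Ume6 peak within 500 bp upstream, nor had *STE18*, *CTF13* or *HOS2*. *YET2*, of the endoplasmic reticulum, had 106, 121 and 115 CPM in T99N, against 35.0, 22.5 and 23.3 CPM in wild type, and had both a peak and the core. *ERR2* copy 1, at 2.03, has near-identical copies, and its value is uncertain because reads can be split between copies.

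Mitotic and ribosome biogenesis genes were read against the background of 25.6% called higher and 27.1% lower. Of 31 genes of mitotic cyclins and M phase, 12 were called higher (38.7%) and 2 lower (6.45%), with a median of 0.26. *NUF2*, of the outer kinetochore, had 86.2, 97.6 and 97.7 CPM in T99N, against 35.1, 34.1 and 36.2 CPM in wild type (log2 fold change 1.41, standard error 0.10, adjusted p = 1.6e-08, edgeR). The cohesin genes *SMC1*, *SMC3* and *MCD1* were higher by 0.95, 0.89 and 0.88, or by 0.75, 0.69 and 0.86 with the length scaling. These are genes with long CDSs in 2 of the 3 cases. Of 78 ribosome biogenesis genes, 35 were called higher (44.9%) and 10 lower (12.8%), with a median of 0.20, or 0.13 with the length scaling. The fit of 24 libraries called 26 of them higher and 5 lower. *RRP15* averaged 99.1 ± 23.8 CPM in T99N and 28.1 ± 3.57 CPM in wild type (SD, n = 3 each), and *NOP58*, of the box C/D snoRNP, 264 ± 15.2 CPM in T99N and 111 ± 7.65 CPM in wild type (SD, n = 3 each). *TIF6*, a ribosome anti-association factor, moved the other way, at −0.94.

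Among genes of nitrogen use, the GABA permease gene *UGA4* had 42.3, 47.8 and 52.3 CPM in T99N, against 14.4, 11.5 and 11.7 CPM in wild type (log2 fold change 1.92, standard error 0.14, adjusted p = 1.8e-08, edgeR). *GAT1*, an activator of nitrogen catabolite genes, was higher by 1.10 and the general amino acid permease *GAP1* by 0.85. The list as a whole was even, with 8 of 29 called higher (27.6%) and 6 lower (20.7%), against 25.6% and 27.1% of all CDSs. The fit of 24 libraries called 6 higher and 3 lower. Of the called genes over 2-fold higher, those with the highest CPM (not per length) were *OM45*, *SCW4*, *SIP4*, *ERG11* and *INO1*. *ERG11*, lanosterol demethylase of ergosterol synthesis, averaged 926 ± 68.5 CPM in T99N and 422 ± 81.5 CPM in wild type (SD, n = 3 each), a log2 fold change of 1.13. *SCW4*, a cell wall glucanase-like protein, was higher by 1.16 and *OM45*, of the mitochondrial outer membrane, by 1.01.

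Glycolytic genes were lower in T99N. Of 18 genes, 15 were called lower (83.3%, against 27.1% of all CDSs) and 0 higher, with a median log2 fold change of −0.76. Their CDSs are not short, and with the length scaling 16 were called lower and the median was −0.71. *TDH3*, the main glyceraldehyde-3-phosphate dehydrogenase, had 4320, 4510 and 4680 CPM in T99N, against 9620, 13000 and 11500 CPM in wild type (log2 fold change −1.33, standard error 0.16, adjusted p = 3.4e-06, edgeR). *ENO2*, an enolase, had 574, 648 and 603 CPM in T99N, against 1480, 2010 and 1760 CPM in wild type, and had the lowest value of the list (−1.52, standard error 0.13, adjusted p = 7.5e-08, edgeR). All T99N libraries of both genes lay below all wild-type libraries. *TDH2* (−1.29), *PDC5* (−1.12), *ENO1* (−1.05), *PGK1* (−1.02) and *GPM1* (−1) were the others at or under −1. *PFK1*, *PYK2* and *PDC6* were not called, with −0.22, 0.057 and 0.24. In the fit of 24 libraries, 2 of the 18 were called lower at 0 h (18.9% of all CDSs), at the same median of −0.76, and *TDH3* (adjusted p = 0.078), *TDH2* (0.077) and *ENO1* (0.14) were not. Hexokinase *HXK2* and glucokinase *GLK1*, which feed glycolysis, were lower by 1.02 and 0.83 on the log2 scale.

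Other lower groups were those of the mitochondrial respiratory chain, the ribosome and the proteasome. Of 41 genes of the respiratory chain and ATP synthase, 31 were called lower (75.6%) and 4 higher, with a median of −0.64. Their median CDS length is 383 bp, and with the length scaling 21 were called lower and the median was −0.24. *COX7*, a subunit of cytochrome c oxidase with a CDS of 182 bp, had 23.0, 19.2 and 20.6 CPM in T99N, against 128, 107 and 96.2 CPM in wild type. The log2 fold change was −2.39 (standard error 0.13, adjusted p = 8.2e-10, edgeR), or −1.21 with the length scaling. Of 105 ribosomal protein genes, 70 were called lower (66.7%) and 5 higher, with a median of −0.41, or −0.29 with 51 called lower under the length scaling. In the fit of 24 libraries 42 of the 105 were called lower and 3 higher (18.9% and 17.9% of all CDSs), at the same median of −0.41. *RPS28A*, of the small subunit with a near-identical paralog, had 9.68, 9.55 and 12 CPM in T99N, against 53.0, 52.9 and 47.8 CPM in wild type (log2 fold change −2.31, or −1.29 with the length scaling). *RPL37A* (−1.96) and *RPL39* (−2.01), with spans of 625 and 541 bp, had −1.86 and −1.85 with that scaling. Any intron counts in these spans, and a scaling on lengths without introns was not tested for the ribosomal protein genes. Of 17 TCA cycle genes 9 were called lower (52.9%, against 27.1% of all CDSs) and 0 higher (median −0.30, or −0.31 with the length scaling). Among them were the succinate dehydrogenase subunits *SDH1*, *SDH2* and *SDH3* at −0.75, −0.99 and −0.89. Of 33 proteasome genes 15 were called lower (45.5%) and 0 higher (median −0.19, or −0.17), with *PRE8* at −0.80 and *PUP1* at −0.74. Of 15 genes of aromatic amino acid synthesis 10 were called lower (66.7%) and 1 higher (6.67%), with a median of −0.35. In the fit of 24 libraries, 6 TCA cycle, 13 proteasome and 7 aromatic synthesis genes were called lower and 0 higher (18.9% and 17.9% of all CDSs).

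**Figure D3:**
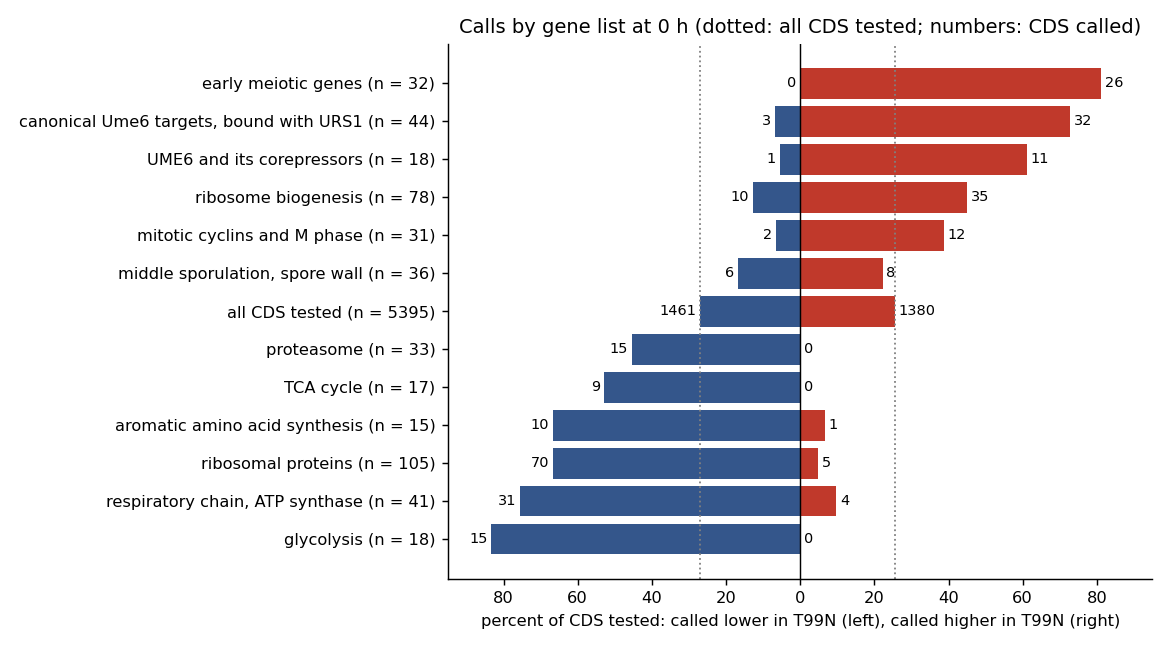
Bars give the percent of each list's CDSs called higher in T99N (red, to the right) and called lower (blue, to the left) at 0 h, with the number called at each end and dotted lines at the shares over all 5395 CDSs. The early meiotic genes reach 81.2% called higher and the glycolytic genes 83.3% called lower.

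The 15 CDSs with the largest falls, among those with separate libraries and at least 10 CPM in wild type, had a median length of 227 bp, and 12 of them were no longer than 600 bp. All 15 were still called lower with the length scaling, 12 of them by over 2-fold. By span from start to end, any intron included, the exceptions in length were *URA3*, *RPL37A* and *VTH2* copy 2. The last has a near-identical copy that moved the other way (*VTH2* copy 1, 1.72), so that its value is uncertain. The lowest value among these 15 was that of *HRT1* (YOL133W), a RING subunit of SCF ubiquitin ligases, with 0, 6.46 and 9.50 CPM in T99N, against 29.9, 29.2 and 31.3 CPM in wild type. T99N replicate 1 had no read there, and DESeq2 did not call it (log2 fold change −2.50, adjusted p = 0.17). *SSA2*, a cytosolic Hsp70 with a CDS of 1919 bp and close paralogs, had 24.3, 18.8 and 19.9 CPM in T99N, against 57.8, 73.6 and 53.6 CPM in wild type (log2 fold change −1.54, standard error 0.14, adjusted p = 2.5e-07, edgeR). *RNR2*, a small subunit of ribonucleotide reductase, averaged 196 ± 7.13 CPM in T99N and 413 ± 49.1 CPM in wild type (SD, n = 3 each), a log2 fold change of −1.08. *TEF2*, one of a pair of genes for translation elongation factor 1A, was lower by 1.16 on the log2 scale. *CCW12*, of the cell wall, had 717, 999 and 820 CPM in T99N, against 1760, 1970 and 2120 CPM in wild type, a log2 fold change of −1.21, or −0.87 with the length scaling. Of 36 stress genes, 18 were called lower (50.0%) and 5 higher (13.9%), against 27.1% and 25.6% of all CDSs. The fit of 24 libraries called 11 lower and 2 higher. *SIP18* and *DDR2*, both with short CDSs, were not called with the length scaling (adjusted p = 0.20 and 0.088, edgeR).

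Ume6 binding was not used to call a gene or to form the classes of strain difference below, although it did define the group of 44 canonical targets above. The peaks come from the authors' own calls on each of 3 Ume6 ChIP replicates of another strain, UB3301, grown to saturation in BYTA. A gene was counted as bound when a summit over 4-fold lay within 500 bp upstream of its CDS in at least 2 of the 3 replicates. Of the 173 CDSs over 2-fold higher in T99N, 63 were bound (36.4%, 95% Wilson interval 29.6 to 43.8), against 374 of 2554 CDSs not called (14.6%, 13.3 to 16.1) and 879 of all 5395 (16.3%). Of the CDSs over 2-fold lower, 30 of 163 were bound (18.4%, 13.2 to 25.1). Among all CDSs called higher, 266 of 1380 were bound (19.3%, 17.3 to 21.4), and among all called lower 239 of 1461 (16.4%, 14.6 to 18.3). The share of all CDSs called higher thus lay much nearer to that of all CDSs than the share over 2-fold higher did. The intervals cover counting error only, and neighbouring genes can share a peak. The GGCGGC core stood in the S288C promoter of 29 of 171 CDSs over 2-fold higher (17%, 12.1 to 23.3) and of 8 of 159 over 2-fold lower (5.03%, 2.57 to 9.61), against 4.73% of all. Of the 63 bound CDSs over 2-fold higher, 28 held the core.

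Bound genes were called in both directions. Of 879 bound CDSs, 505 were called (57.5%, against 52.7% of all CDSs), 266 higher (30.3%) and 239 lower (27.2%), and 63 (7.17%) were over 2-fold higher, against 2.44% of the 4516 CDSs without a peak. The share over 2-fold higher was 4.46% of 471 bound CDSs with a mean fold enrichment up to 10, 8.11% of 259 between 10 and 30, and 14.1% of 149 over 30. Where a promoter had both the core and a peak, 28 of 145 CDSs (19.3%) were over 2-fold higher. With the core but no peak it was 1 of 109 (0.917%), and with a peak but no core 35 of 734 (4.77%). The peaks over *SPO13* had fold enrichments of 11.7, 36.2 and 40.4 in the 3 ChIP replicates and those over *SPO16* 10.5, 59.6 and 54.8, the windows of both being shown above. The *UME6* promoter held the core itself, and its peaks had 15.6, 17.0 and 18.4. *UGA4* had no core but peaks of 100, 110 and 108. *CCW12*, whose peaks had 63.4, 57.8 and 48.4, was lower in T99N.

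**Figure D4:**
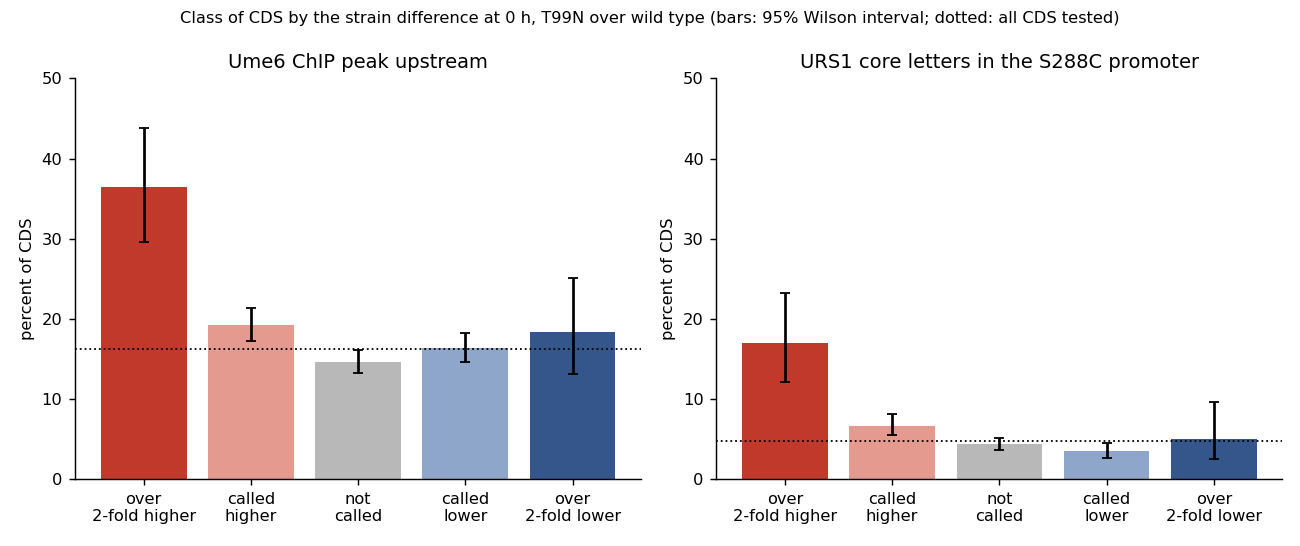
The left panel gives the percent of CDSs with an upstream Ume6 peak and the right panel the percent with the GGCGGC core in the S288C promoter, for 5 classes of CDS by their strain difference at 0 h, with 95% Wilson intervals and a dotted line at the share over all CDSs tested. The class over 2-fold higher in T99N stands at 36.4% and 17%, above the others.

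The later libraries of both strains, which the calls at 0 h did not use, were then read with the same contrast in 1 fit of all 24. At 2 h, before copper by the study's methods, 160 of the 173 CDSs over 2-fold higher at 0 h were called higher and 0 lower, against 20.7% of all CDSs called higher at that time. Of the 163 CDSs over 2-fold lower, 145 were called lower and 0 higher, against 21.2%. The early meiotic genes had 24 of 32 called higher at 2 h, with a median log2 fold change of 1.01. T99N replicate 1 at 2 h had 1870 CPM of *IME1*, against 74.5 and 91.2 CPM in the other T99N libraries and 59.2 to 111 CPM in wild type. The same library had 1270 CPM of *IME4*, against 74.5 and 87.8 CPM in the other T99N libraries and 41.2 to 77.7 CPM in wild type. *CUP1-2* was at 426 CPM there, against 16 and 19.4 CPM in the other T99N libraries and 41.5 to 75.5 CPM in wild type. The genes driven by the *CUP1* promoter and *CUP1-2* itself were thus all high in 1 T99N library labelled 2 h. Without that library the counts at 2 h were 159 and 144 of the CDSs over 2-fold higher and lower, and 24 of the early meiotic genes. The rise of the 78 ribosome biogenesis genes did not hold at 2 h. There 15 were called higher and 5 lower, at a median of 0.0062. Without the same library 12 were called higher and 31 lower, at a median of −0.26.

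After copper the direction turned for these genes. At 3 h, 0 of the 32 early meiotic genes were called higher and 29 lower in T99N (28% and 29% of all CDSs), with a median log2 fold change of −2.50, and at 4 h 30 were lower and 0 higher, at −2.55 (29.5% and 22.9% of all CDSs). *MEI5* had −3.85 and *RNP1* −3.33 at 3 h. Over the 173 CDSs, 78 were still called higher at 3 h and 49 were lower. *CTF13*, *MIC10* and *YET2* stayed higher at 3 h, at 1.31, 1.29 and 2.58. The glycolytic genes turned in the opposite sense, with 17 of 18 called higher and 1 lower at 3 h at a median of 2.75. At 4 h 16 were higher and 0 lower. The ribosomal protein genes were called lower at 2 h in 94 of 105 and higher at 3 h in 92, whereas at 4 h 22 were higher and 12 lower, at a median of 0.11. The length trend was present at each time, with a median over CDSs up to 300 bp of −0.86 at 0 h, −0.82 at 2 h, −0.35 at 3 h and −0.63 at 4 h.

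**Figure D5:**
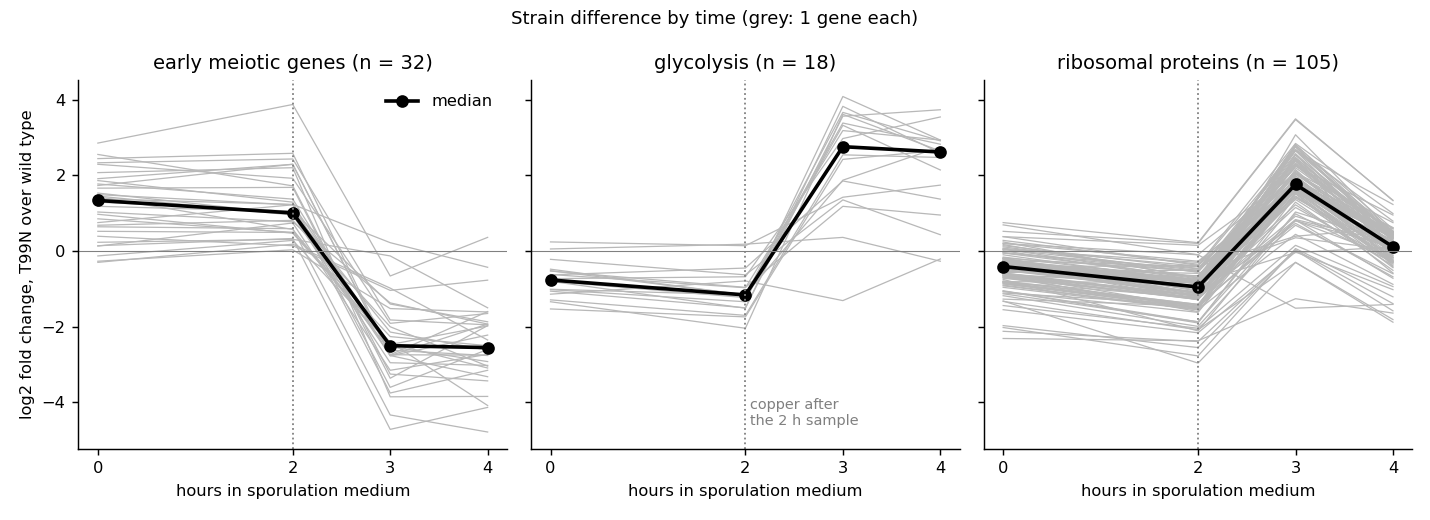
Log2 fold change of T99N over wild type at 0, 2, 3 and 4 h for the early meiotic genes, the glycolytic genes and the ribosomal protein genes, with 1 grey line per gene and the median in black; the dotted line marks the 2 h sample, after which copper was added. The median of the early meiotic genes is 1.33 at 0 h and −2.50 at 3 h, and that of the glycolytic genes −0.76 and 2.75.

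Whether the strain difference itself changed between 0 h and 2 h was tested by the interaction of strain and time over the 24 libraries. It was called for 33 CDSs (0.612%), of which 13 moved up and 20 down, and for 100 CDSs without T99N replicate 1 at 2 h. None of the 32 early meiotic genes was among them, and 2 of the 44 targets with URS1 and Ume6 binding were, *INO1* and *CAR1*, or 0 and 3 without that library. *INO1* had a log2 fold change of 1.27 at 0 h and −0.43 at 2 h (interaction −1.70, adjusted p = 0.047, edgeR), and *CAR1* 0.77 and −0.54 (interaction −1.31, adjusted p = 0.047, edgeR). At 2 h itself *INO1* was not called (adjusted p = 0.2, edgeR), and *CAR1* was called lower (0.041).

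The difference was spread over the genome. The median log2 fold change per chromosome lay between −0.12 (chromosome III) and 0.037 (chromosome VII). Of 5299 windows of 7 neighbouring CDSs, none had a median over 1 or under −1. The highest window, on chromosome III from *MRC1* to *KAR4*, had a median of 0.93. The lowest, on chromosome V from *SNU13* to *TIM9*, had −0.86 at a median CDS length of 803 bp. It contains the marker gene *URA3*, and the cause of these runs was not tested. The markers of cell type were checked against the label of a diploid. The 4 measured a-cell markers summed to 64.5 to 70.8 CPM in T99N, against 59.2 to 86.6 CPM in wild type, and the 4 alpha-cell markers had a summed median of 100.0 CPM in T99N, against 104 CPM in wild type. Among them *BAR1*, the a-cell protease that degrades alpha factor, was called lower (−0.82, adjusted p = 0.002, edgeR) and *ASG7*, another a-cell gene, higher (0.67, adjusted p = 0.027). The alpha-factor gene *MF(ALPHA)2* was called lower (−0.77, adjusted p = 0.036, edgeR), but not with the length scaling (−0.35, adjusted p = 0.32). The 8 haploid markers summed to 125 to 131 CPM in T99N, against 92.0 to 109 CPM in wild type, and *STE18* was the 1 of them called. In a wider list of 14 haploid-specific genes, *FAR1*, of pheromone-induced arrest, was also called higher (0.55, adjusted p = 0.00078, edgeR), as was *AXL1*, a protease of a-factor processing (0.36, adjusted p = 0.01), and 0 were lower. *AXL1* was not called with the length scaling (adjusted p = 0.19, edgeR). *RME1*, the haploid repressor of meiosis, averaged 10.1 ± 1.98 CPM in T99N and 8.75 ± 0.184 CPM in wild type (SD, n = 3 each) and was not called. Of the 6 meiotic markers 5 were called higher, summing to 372 to 414 CPM in T99N, against 119 to 185 CPM in wild type, and of the 3 spore markers 0 were higher and 1 lower. *MATALPHA2*, a mating-type gene named after its values were seen, had 141, 188 and 125 CPM in T99N, against 63.0, 40.6 and 56.9 CPM in wild type (log2 fold change 1.5, adjusted p = 8.5e-07, edgeR), and shares sequence with the silent copy at *HML*. That copy, *HMLALPHA2*, was not called (−0.092, adjusted p = 0.56, edgeR). *HMRA1*, another mating-type gene, was called higher (0.72, adjusted p = 0.00042, edgeR). In bulk RNA, more cells that express a gene and more RNA per cell cannot be told apart.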

How the data were processed

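Polyadenylated RNA of 3 libraries per strain at 0 h was sequenced as single reads from a directional kit. The authors assigned the reads with salmon and deposited expected counts per feature, which need not be whole. Of the values at 0 h, 96.82% were whole, and all were rounded. The strand setting of the counting is not given in the sources used here, so antisense reads cannot be told apart from sense reads. Ume6 peaks had been called by the authors with macs2 in each ChIP replicate, and their deposited fold enrichment, a ratio over background, was taken as given. Features were named by matching coordinates to the deposited SK1 annotation.

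Counts were normalized by TMM, filtered at edgeR's default and tested with its quasi-likelihood method in edgeR 4.0.16 and R 4.3.3, with Benjamini-Hochberg adjustment over all features tested. DESeq2 1.42.0 and limma 3.58.1 were alternatives. Standard errors were computed from the test statistic. The test was checked on simulated data. Replicates of a strain differed by more than sampling noise, so all 6 were kept.

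Genes were named by rule: the edited loci, their neighbours and marker genes, the 15 largest rises and falls with separate libraries and at least 10 CPM, up to 4 called genes per list with at least 3 calls, and the 5 called genes with the highest CPM over 2-fold in each direction. Other members of a list are given to complete it. The members, lists and tests were chosen with earlier results of these data known. The other deposited tables (TL-seq and LUTI counts, normalised counts, histone modification and nucleosome values, with the authors' own fold changes and p-values) were not used here.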

Additional observations from a re-analysis of the deposited data

Results flagged for a closer look

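Of the genes named by rule, 7 had a strain difference at 2 h that differed from that at 0 h in the interaction test (edgeR, 24 libraries), and in all of them the sign of the log2 fold change turned. The interaction was −1.96 for the amino acid permease *GAP1* (0.85 at 0 h, −1.11 at 2 h), −1.70 for *INO1* (1.27 and −0.43) and −1.31 for *CAR1* (0.77 and −0.54). It was −1.50 for the transporter gene *THI73* (0.63 and −0.87), −1.08 for *IZH4* (0.97 and −0.10) and −0.92 for *IZH2* (0.59 and −0.33), both zinc-regulated membrane protein genes. The oxaloacetate carrier gene *OAC1* moved up by 1.12 (−0.52 and 0.60). Adjusted p of the interaction lay between 0.0017 and 0.047. Without the T99N library with high *IME1* at 2 h all 7 were still called, with interactions from −1.89 to 0.88. A turned sign is not a call at 2 h. There *GAP1* and *CAR1* were called lower (adjusted p = 0.0037 and 0.041, edgeR), but *INO1* was not (0.2), and *IZH4* had only −0.10.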

How the results depend on the processing

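The counts of called CDSs stayed within 1.5 times of those reported under DESeq2, limma-voom, other normalizations and filters, thinning, adjusted p thresholds of 0.01 and 0.1, CDSs alone, all 24 libraries and each library left out, with the exception of the CDSs over 2-fold lower, which numbered 64 with the length scaling. Leaving out 1 library gave 1169 to 1483 higher, 1170 to 1527 lower, 157 to 200 over 2-fold higher and 150 to 175 over 2-fold lower. The replicate numbers did not pair the libraries: deviations of same-numbered libraries correlated at −0.041, −0.312 and 0.00276, and each T99N library correlated best with another number. With the replicate block, 1279 CDSs were called higher and 1317 lower, 175 and 165 of them over 2-fold.

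Of 203 genes named by rule, 193 were called, 32 of these lost the call in at least 1 of 19 alternatives, and 7 turned sign in at least 1. With the length scaling the log2 fold change became −0.04 for *MSC2*, −0.06 for *EBS1*, −0.069 for *JSN1*, −0.20 for *BUD4*, 0.27 for *RPL43B* and 0.19 for *YGL194C-A* (−0.63 and called without it). *BUD4* also had −0.0015 with upper-quartile normalization, −0.14 without wild-type replicate 2 and −0.044 without T99N replicate 2, and *GCD6* had 0.026 without the last. Over the libraries left out, *GCD6* ranged between −0.071 and 0.026 and *BUD4* between −0.14 and 0.11, and neither was called in any of them.

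The share of CDSs with a Ume6 peak moved with its definition. With summits within 300 bp it was 29.5% of CDSs over 2-fold higher, 12% of those called higher, 7.64% not called, 9.03% called lower and 11% over 2-fold lower. Within 1000 bp it was 27% called higher, 21.4% not called, 24.5% called lower and 25.8% over 2-fold lower. With any peak it was 24.7% called higher, 21.5% not called and 25.1% called lower. With peaks over 4-fold in all 3 replicates it was 27.7%, 14.1%, 10.8%, 12.4% and 12.3% over the same 5 classes. Depth was lower in T99N, and replicates number 3 per strain, which limits what can be called among CDSs with few reads.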
